A study of Mus musculus with 6 samples.

Results

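The type I interferon response genes described here are 32 mouse genes, from the sensors that start the response to the antiviral proteins that carry it out. They were selected by gene symbol, matched to Ensembl identifiers on GRCm38, from the 41388 genes listed in each deposited table, and all 32 had a row. RNA was measured by bulk sequencing in macrophages sorted from the intimal layer of the aorta of ApoE -/- mice on the C57BL/6 strain, and all groups carry this genotype. The series design gives 6 mice fed a Western diet for 28 weeks, and which mice went into which library is not stated, nor is their age. Foamy macrophages were sorted as live CD64+CD11b+ cells with high side scatter and a high signal of BODIPY493/503, which stains neutral lipid, and non-foamy macrophages as live CD64+CD11b+ cells low in both. There were 3 libraries of each, and no other group is used here, so the 2 populations are compared only with each other. Since nothing states that the libraries came from separate animals, p-values measure only how far these libraries spread, and that spread may be technical.

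Type I interferons are secreted cytokines that a cell makes after sensors find nucleic acid in the wrong place. They bind the receptor made by Ifnar1 and Ifnar2, whose kinases Jak1 and Tyk2 phosphorylate STAT proteins. STAT2 and IRF9 are parts of a complex that binds the interferon-stimulated response element, ISRE, in front of responsive genes. Many of the products block virus entry, RNA or protein synthesis, and macrophages also express a part of these genes at a basal level. In arteries with plaques, interferon-responsive macrophages are one of the states described by single-cell studies.

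The DNA in front of some of these genes is shown because many of them share the ISRE. Promoters of 23 of the 32 genes were in a RefSeq table on GRCm38.p6, with 28 start sites between them, each as 250 bases before and 50 after the start. The ISRE core, GAAANNGAAA on either strand, stood in 14 of these 28 windows (50.0%) and in 3.44% of all 32851 windows of the table. By gene, 13 of 23 held it: Bst2, Ddx58, Ifih1, Ifit1, Ifit3, Ifitm3, Isg15, Oas1a, Oas3, Phf11b, Rsad2, Stat2 and Trim30a. The GAS core, TTCNNNGAA, which reads the same on both strands and is bound by STAT dimers, stood in 6 of 28 windows (21.4%) and in 8.30% of all windows. A match describes the letters of the window only. The stretches that hold the ISRE core are given below in the direction of transcription, with matches on either strand in capitals. Ifitm3 is shown because it passed the test for a difference, Bst2 and Phf11b because they had the highest RPKM among the other genes with the core, and Ifit1 and Ifit3, picked after their values were seen, because they varied widely among foamy libraries.
Ifitm3, chr7:141010716-141010742, minus strand, bases 3 to 29 after the start: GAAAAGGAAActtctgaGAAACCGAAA
Bst2, chr8:71537572-71537617, minus strand, upstream: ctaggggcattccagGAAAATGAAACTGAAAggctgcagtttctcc
Phf11b, chr14:59341356-59341395, minus strand, upstream: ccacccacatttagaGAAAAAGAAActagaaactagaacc
Ifit1, chr19:34640770-34640828, plus strand, upstream: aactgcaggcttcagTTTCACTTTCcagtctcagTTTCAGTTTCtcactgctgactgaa
Ifit3, chr19:34583358-34583431, plus strand, upstream: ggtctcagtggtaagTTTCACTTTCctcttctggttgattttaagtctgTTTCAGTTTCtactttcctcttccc
Ifitm3, Bst2, Ifit1 and Ifit3 each had 2 matches and Phf11b had 1. Those of Ifitm3 lie in the transcribed part of the window. In Bst2 the 2 matches overlap, so that the GAAA unit recurs 3 times in a row.

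Libraries held between 15628627 and 24619075 counts in genes, and the 32 genes took between 0.0707% and 0.258% of them. The macrophage markers Cd68, Csf1r, Adgre1, Fcgr1 and Itgam were present in all 6 libraries. Cd68 was higher in foamy libraries (log2 fold change 0.97), Csf1r (-1.28), Adgre1 (-0.83) and Itgam (-0.87) were lower, with edgeR adjusted p between 0.0043 and 0.026, and Fcgr1, which encodes CD64, did not pass (0.35). On the same marker list Mertk was higher too (1.37, edgeR adjusted p = 0.0074), and C1qa, C1qb and C1qc did not pass. Apoe, the gene disrupted in these mice, averaged 4.96 ± 1.78 CPM (SD, n = 3) in the foamy and 4.45 ± 1.66 CPM in the non-foamy group, with no wild-type library here to check it against. CPM, counts per 1000000 counts in genes, is given after TMM scaling, which adjusts for differences in RNA composition, and fold changes are foamy over non-foamy.

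Most interferon response genes were measured at lower levels in foamy than in non-foamy libraries, but the test called only 2 of them. All 32 passed the filter on low counts, and 30 of 32 had a log2 fold change below 0, against 52.8% of the 11303 genes tested. Of these 30, Ifi35, Trim30a, Parp14, Bst2 and Oasl1 changed sign when 1 library was left out. The median log2 fold change of the 32 was -0.89, against -0.04 over all tested genes. The size of that gap depended on the filter on low counts, which moved the median of all genes more than that of the 32. Over 29120 genes the median of all genes was -0.66 without the filter and -0.80 with DESeq2, where the 32 had -0.82 and -0.88. With a stricter filter on low counts, over 7757 genes, it was -0.03, and the 29 members still tested had -0.92. Ifi27l2a and Ifitm3 fell and none rose at an edgeR adjusted p under 0.05, whereas of all tested genes 2.9% fell, 2.5% rose and 5.41% changed in either direction. These are 328 lower and 283 higher genes, against 614 lower and 165 higher with scaling by total counts alone, where 5 of the 32 fell. At an unadjusted p under 0.05, 11 of the 32 were lower, against 10.1% of tested genes. Of the 32, 15 were at least 2-fold lower, but the share of all tested genes past that limit was not counted. In 10 of the 32 genes the 3 foamy values all lay below the 3 non-foamy values, a pattern seen in 13.3% of tested genes, and in none did they all lie above, against 12.4%. The other 22 genes overlapped between the groups. The count of genes that fell was 5 without foamy replicate 1 and 4 without non-foamy replicate 1. The median moved to -0.57 without foamy replicate 2 and to -0.59 without non-foamy replicate 3. In such sorted bulk samples, fewer cells with the RNA and less RNA per cell cannot be told apart.

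**Figure D1:**
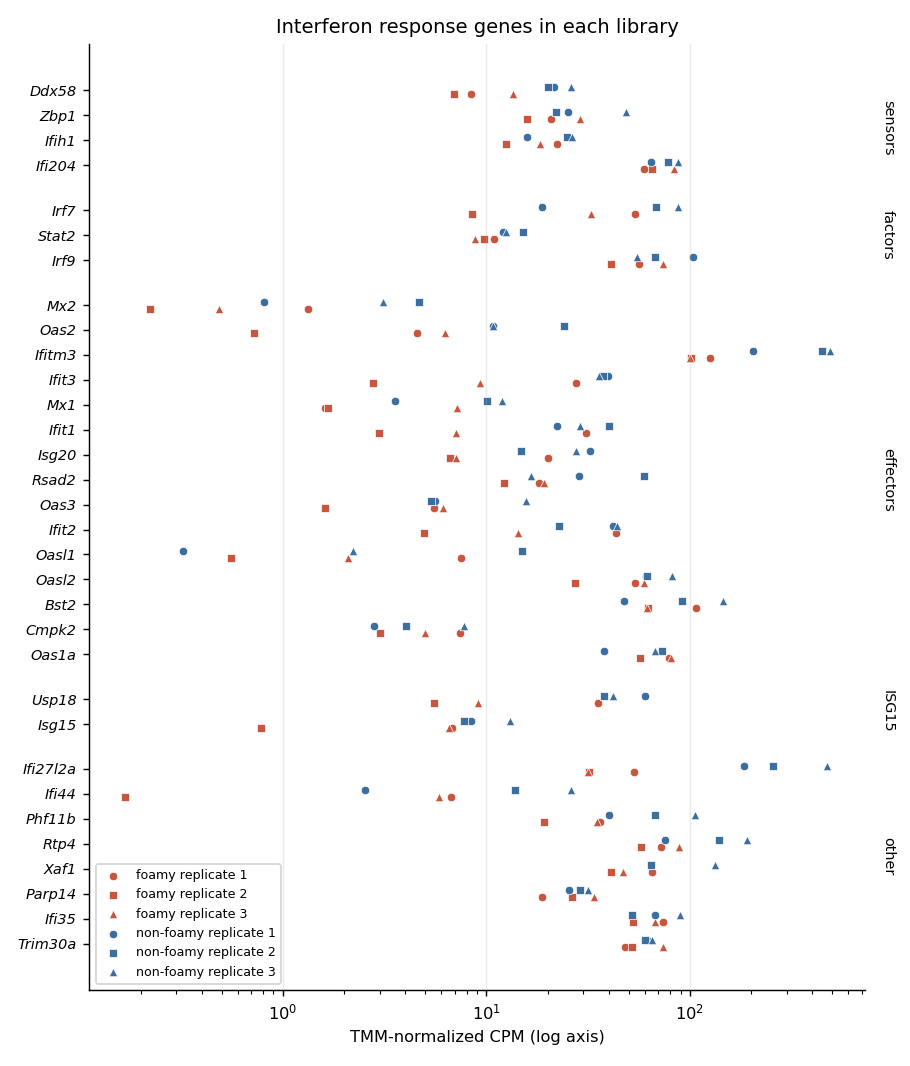
Level of each of the 32 genes in TMM-normalized CPM on a log axis (x), by gene grouped by role (y), with 1 point per library, foamy in red and non-foamy in blue, and the replicate number as the symbol. Ifi27l2a and Ifitm3 stand apart by group, and the red square, foamy replicate 2, is the leftmost foamy point in 24 of 32 genes.

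Ifi27l2a, an interferon-induced gene that encodes a small hydrophobic membrane protein, had the largest difference of the 32. Foamy replicates 1 to 3 had 53.0, 31.9 and 31.7 CPM, and non-foamy replicates 1 to 3 had 184, 255 and 470.0 CPM. Every non-foamy library was thus above every foamy library, and non-foamy replicate 3 was the highest. The means were 38.9 ± 12.2 and 303 ± 149 CPM (SD, n = 3 each), a log2 fold change of -2.96 (SE 0.35, adjusted p = 7.4e-04 with edgeR), or 7.80-fold lower. Ifi27l2a was called under all 14 alternative settings of normalization, tool, filter, block and left-out library, between -3.25 and -2.49. Ifi27l2a (ENSMUSG00000079017) lies on chromosome 12 from 103442167 to 103443680 on the minus strand of GRCm38, and 0.5% of its 50-base stretches also occur in transcripts of another gene, so few reads could be split.

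Ifitm3 encodes a membrane protein that stops viruses from entering through endosomes. Foamy replicates 1 to 3 had 125, 102 and 101 CPM and lay close together, with 203, 445 and 488 CPM in non-foamy replicates 1 to 3. Non-foamy replicate 1 was the lowest of its group but still above the foamy libraries. The log2 fold change was -1.79 (SE 0.29, edgeR adjusted p = 0.0050), or 3.47-fold lower, and the call held under all 14 alternatives, with values between -2.10 and -1.56. Ifitm3 (ENSMUSG00000025492) lies on chromosome 7 from 141009586 to 141010770 on the minus strand, and 10.0% of its 50-base stretches occur elsewhere, such as in Gm7676.

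The Ifitm relatives of Ifitm3 on chromosome 7 were on a list of further interferon-induced genes. Ifitm1 had 0.997, 0.390 and 0.0539 CPM in foamy and 21.9, 7.49 and 10.1 CPM in non-foamy replicates 1 to 3, from 21, 7 and 1 counts against 405, 136 and 256 (log2 fold change -4.74, SE 0.87, adjusted p = 0.0091 with edgeR). This call was lost without foamy replicate 2 (-4.60) and with limma-voom (-5.12). Ifitm6, with 6, 4 and 1 counts in foamy and 129, 77 and 186 in non-foamy libraries, fell too (log2 fold change -4.99, SE 0.87, adjusted p = 0.0071 with edgeR). Both genes passed the filter on low counts through the non-foamy libraries, where they are high, and Ifitm6 did not pass the stricter filter and has no value there. Ifitm2, the most abundant of the family in CPM, did not pass: its mean was 399 ± 82.5 CPM in the foamy group against 641 ± 81.2 CPM (log2 fold change -0.69, SE 0.20, adjusted p = 0.077 with edgeR), although its groups did not overlap.

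Markers of some other cells moved with the groups in the same libraries, and those of others did not. Of 12 tested monocyte markers, 7 fell in foamy libraries and none rose, where 2.9% of all tested genes fell and 2.5% rose. The list's summed level ran from 55.3 to 70.8 CPM in foamy and from 533 to 859 CPM in non-foamy libraries. Plac8 was at 0 in foamy replicates 1 and 3, with 1 count in foamy replicate 2, and at 22.5 to 24.8 CPM in non-foamy libraries. Some of the 7, such as Plac8 and Vcan, passed the filter on low counts through the non-foamy libraries, where they are high. Immediate early and heat shock genes, which cell handling can induce, fell in 13 of 18 cases and rose in none, against the same shares. Their summed level was 2489 to 3051 CPM in foamy and 5595 to 7859 CPM in non-foamy libraries. Hsph1 of this list went the other way without being called, with its 3 foamy values above the non-foamy ones (log2 fold change 0.62, SE 0.22, adjusted p = 0.15 with edgeR). Summed markers of conventional dendritic cells ran from 0.427 to 16.2 CPM in foamy and from 36.5 to 254 CPM in non-foamy libraries, mostly Cd209a in the non-foamy ones, and 0 of 2 tested members were called. Of that list Clec9a went the other way, with 0, 22 and 33 counts in foamy replicates 1 to 3 and 0 in non-foamy ones. The part of these cells and of handling in the interferon gene differences was not tested. Plasmacytoid dendritic cells, a main source of type I interferon, had a summed marker level of 36.8 to 51.2 CPM in foamy and of 62.9 to 84.4 CPM in non-foamy libraries, most of it from Tcf4, and 0 of 3 tested members were called. Their markers did not go one way: Siglech had 0 counts in foamy libraries and 3, 50 and 10 counts in non-foamy replicates 1 to 3, while Cd300c had 13, 33 and 9 counts in foamy replicates 1 to 3 and 0 in non-foamy ones. Cox6a2 also had its 3 foamy values above the non-foamy ones (log2 fold change 1.54, SE 0.55, adjusted p = 0.15 with edgeR), and Klk1 was at 0 in all libraries. B cell markers summed to between 140 and 171 CPM in foamy and between 597 and 699 CPM in non-foamy libraries, where of 3 tested Ighm fell and Cd22 rose. Of 5 tested neutrophil markers S100a9 fell and Mmp8 rose, and of 2 tested T and NK cell markers Klrb1c rose. S100a9 and Klrb1c each passed the filter on low counts through the group where they are high. Of the smooth muscle, endothelial and fibroblast markers 0 were called. The fibroblast markers were present but varied widely inside both groups. Their summed level was 6.79, 2.84 and 172 CPM in foamy and 130, 11.9 and 307 CPM in non-foamy replicates 1 to 3.

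Among the sensors, the RNA helicase gene Ddx58, which encodes RIG-I, showed the clearest difference and none was called. It stood at 8.40, 6.91 and 13.5 CPM in foamy and 21.5, 20.1 and 26.1 CPM in non-foamy replicates 1 to 3, without overlap (log2 fold change -1.23, SE 0.36, adjusted p = 0.079 with edgeR). Scaling by total counts alone (-1.51, adjusted p = 0.032 with edgeR) and DESeq2 (-1.22, adjusted p = 0.0096) put it past the threshold. Ifih1, the related helicase MDA5, had means of 17.7 ± 4.87 CPM (foamy) and 22.4 ± 5.73 CPM (non-foamy) in overlapping groups. Zbp1, a sensor of Z-form nucleic acid, had log2 fold change -0.54 (SE 0.36), and Ifi204, a DNA sensor of the PYHIN family, -0.14 (SE 0.22). For Ifi204, 20.0% of the 50-base stretches occur in relatives such as Ifi211, so its reads could be split between them.

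None of the 3 transcription factors passed the test, and they differed in how far the libraries spread. Stat2 was the steadiest, at 11.0, 9.69 and 8.79 CPM in foamy and 12.1, 15.2 and 12.5 CPM in non-foamy replicates 1 to 3 (log2 fold change -0.43, SE 0.36, adjusted p = 0.60 with edgeR). Irf9 had a fold change of similar size with overlapping groups (log2 fold change -0.39, SE 0.29). Irf7, the factor that amplifies interferon production, varied widely inside both groups: it had 53.7, 8.47 and 32.7 CPM in foamy and 18.8, 68.4 and 87.5 CPM in non-foamy replicates 1 to 3. The lowest library of each group was replicate 2 in foamy and replicate 1 in non-foamy, and the groups overlapped (log2 fold change -0.88, SE 0.62, adjusted p = 0.51 with edgeR).

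**Figure D2:**
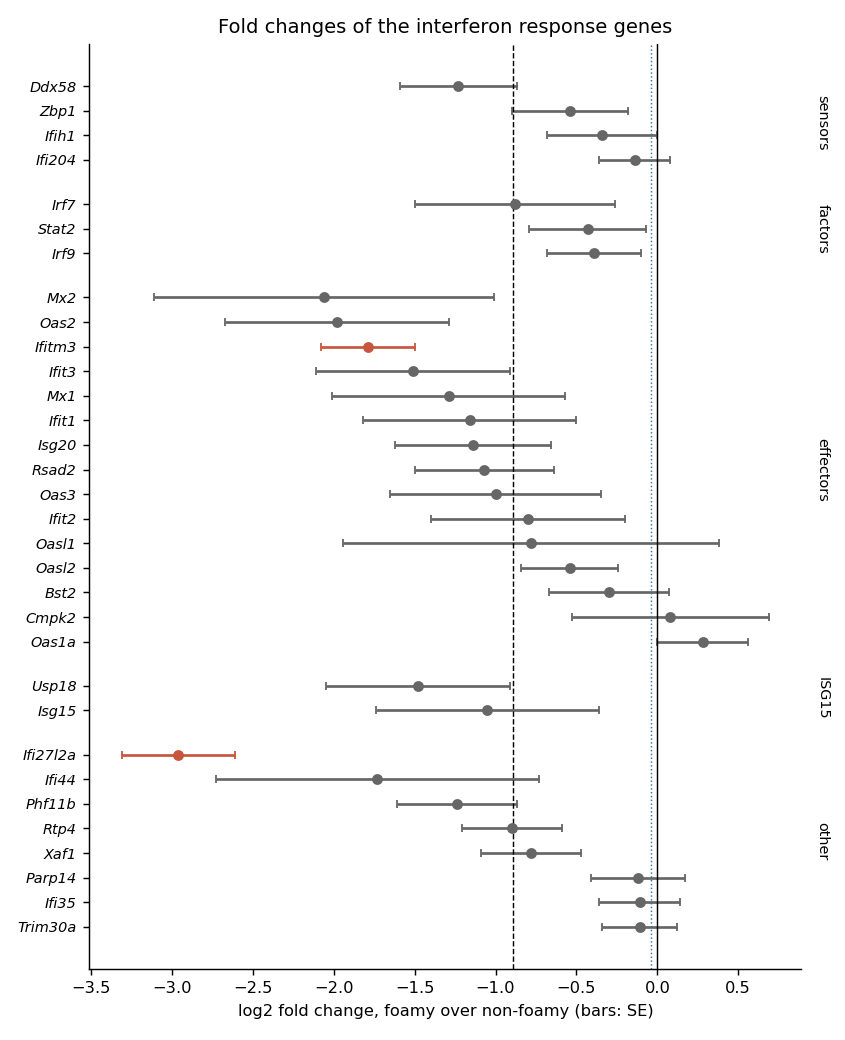
Log2 fold change, foamy over non-foamy, with its SE as the bar (x), for the 32 genes grouped by role (y). Red marks the 2 genes with an edgeR adjusted p under 0.05, the dashed line the median of the 32 (-0.89), and the dotted line the median of all tested genes (-0.04).

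Of the 15 antiviral effectors, Ifitm3 alone was called, and the median log2 fold change was -1.07. Oas2, one of the synthetases whose product activates RNase L, had 4.56, 0.724 and 6.26 CPM in foamy and 10.8, 24.0 and 10.8 CPM in non-foamy replicates 1 to 3 (log2 fold change -1.98, SE 0.69, adjusted p = 0.14 with edgeR). Its groups did not overlap, and foamy replicate 2 lay far below the other libraries. It passed with DESeq2 (-1.97, adjusted p = 0.039) and without a filter on low counts (-1.88, adjusted p = 0.022). Oas1a had one of the 2 log2 fold changes above 0 among the 32 (0.28, SE 0.28), with means of 72.1 ± 13.3 CPM (foamy) and 59.3 ± 18.8 CPM (non-foamy). Of its 50-base stretches, 57.6% are shared with Oas1g, so its count is uncertain. Oas3 (-1.0, SE 0.65), Oasl2 (-0.54, SE 0.30) and Oasl1 (-0.78, SE 1.16) did not pass.

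The Ifit genes, neighbours on chromosome 19 whose proteins bind foreign RNA, varied widely among the foamy libraries and less among the non-foamy ones. Ifit1 had 30.9, 2.95 and 7.12 CPM in foamy replicates 1 to 3, against 22.3, 40.2 and 28.9 CPM in non-foamy replicates 1 to 3. Ifit2 had 43.4, 4.96 and 14.2 CPM, and 42.1, 22.7 and 44.1 CPM, in the same order. Ifit3 had 27.6, 2.79 and 9.28 CPM, and 39.7, 37.4 and 35.9 CPM. In each of the 3 genes foamy replicate 1 was near or within the non-foamy range, foamy replicate 2 was the lowest and foamy replicate 3 lay between. The highest foamy library was 10.5 times the lowest for Ifit1, 8.75 times for Ifit2 and 9.90 times for Ifit3, against 1.803, 1.94 and 1.10 times in non-foamy libraries. No Ifit gene was called with all 6 libraries, with log2 fold changes of -1.16 (SE 0.66), -0.80 (SE 0.60) and -1.51 (SE 0.60), the last with edgeR adjusted p = 0.20. Without foamy replicate 1, Ifit1 (-2.59, edgeR adjusted p = 0.025) and Ifit3 (-2.63, adjusted p = 0.024) were called, and Ifit3 was also called without a filter on low counts (-1.39, adjusted p = 0.0075). Ifit3 shares 51.2% of its 50-base stretches with Ifit3b, which leaves its count uncertain.

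The remaining effectors were low or overlapped between groups. Mx1 and Mx2, of the dynamin-like GTPase family, had means of 3.49 ± 3.19 and 0.679 ± 0.578 CPM in the foamy group against 8.54 ± 4.401 and 2.87 ± 1.94 CPM. Mx2 is annotated as a polymorphic pseudogene in mouse. Rsad2, which encodes viperin, had 59.2 CPM in non-foamy replicate 2 but 16.6 CPM in non-foamy replicate 3, below foamy replicates 1 and 3 (log2 fold change -1.07, SE 0.43, adjusted p = 0.20 with edgeR). Cmpk2, its neighbour on chromosome 12, had a log2 fold change of 0.08 (SE 0.61) that turned to -0.18 with scaling by total counts alone. Isg20, an RNA exonuclease, had a log2 fold change of -1.14 (SE 0.48). Bst2, which encodes tetherin and holds virus particles at the cell surface, stood at 107, 62.2 and 61.4 CPM in foamy and 47.5, 91.1 and 146 CPM in non-foamy replicates 1 to 3. The lowest and the highest Bst2 values were both non-foamy, its log2 fold change was -0.30 (SE 0.37, edgeR adjusted p = 0.75), and without non-foamy replicate 3 the sign turned (0.16).

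Both genes of the ISG15 system, a ubiquitin-like modifier and the protease that removes it, had foamy values below all non-foamy values, and neither was called. Usp18, the protease, which also damps the interferon receptor, had 35.5, 5.52 and 9.06 CPM in foamy and 60.2, 37.8 and 41.7 CPM in non-foamy replicates 1 to 3 (log2 fold change -1.48, SE 0.57, adjusted p = 0.18 with edgeR). Foamy replicate 1 was again close to the non-foamy libraries, and without it Usp18 was called (-2.67, adjusted p = 0.0073), as it was without a filter on low counts (-1.34, adjusted p = 0.0047). Isg15 itself was low, at 6.79, 0.780 and 6.53 CPM in foamy and 8.40, 7.76 and 13.03 CPM in non-foamy replicates 1 to 3 (log2 fold change -1.05, SE 0.69, adjusted p = 0.48 with edgeR).

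Among the 8 other interferon-induced genes, Ifi27l2a was called and the rest were not. Phf11b, a gene of a PHD finger family cluster on chromosome 14, had 36.1, 19.1 and 35.1 CPM in foamy and 40.2, 67.3 and 106 CPM in non-foamy replicates 1 to 3, without overlap (log2 fold change -1.24, SE 0.37, adjusted p = 0.079 with edgeR). It passed under 5 of 14 alternatives, among them DESeq2 (-1.23, adjusted p = 0.038) and without non-foamy replicate 1 (-1.53, adjusted p = 0.029), but 47.0% of its 50-base stretches are shared with relatives such as Phf11a. Rtp4, a chaperone of receptor transport, had 72.2, 57.4 and 88.0 CPM in foamy and 75.3, 139 and 191 CPM in non-foamy replicates 1 to 3. Non-foamy replicate 1 of Rtp4 lay inside the foamy range (log2 fold change -0.90, SE 0.31, adjusted p = 0.13 with edgeR), and without it Rtp4 was called (-1.19, adjusted p = 0.021). Ifi44 had 6.74, 0.167 and 5.88 CPM in foamy and 2.55, 13.8 and 26.1 CPM in non-foamy replicates 1 to 3, a range of 40.3 times within foamy libraries that rests on 3 counts in foamy replicate 2. Xaf1, a gene linked to apoptosis, had a log2 fold change of -0.78 (SE 0.31, edgeR adjusted p = 0.20).

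Several interferon response genes had similar means in both populations. The mean of Ifi35 was 64.7 ± 11.2 CPM (foamy) and 69.8 ± 19.1 CPM (non-foamy). Trim30a, a TRIM-family regulator of Toll-like receptor signalling, had 57.8 ± 13.7 and 62.5 ± 2.60 CPM, and Parp14, an ADP-ribosyltransferase, 26.3 ± 7.56 and 28.6 ± 3.12 CPM. Their log2 fold changes were -0.11 (SE 0.25), -0.11 (SE 0.23) and -0.12 (SE 0.29). In all, 12 of the 32 genes differed by less than 1.5-fold, and the share of all tested genes within that limit was not counted.

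Per gene length, the levels of the 32 genes spanned a wide range. The median over the genes of the mean deposited RPKM was 5.56 in foamy and 14.5 in non-foamy libraries. Deposited RPKM is scaled by total counts alone, without TMM, so these levels are not on the scale of the fold changes above. In non-foamy libraries Ifi27l2a (704 RPKM) and Ifitm3 (601 RPKM) stood above the others, followed by Bst2 (133 RPKM) and Rtp4 (92.4 RPKM). In foamy libraries Ifitm3 came first at 146 RPKM, then Bst2 at 90.9 RPKM, and Ifi27l2a at 75.8 RPKM was the third. Mx2 was the lowest in both, at 0.166 and 0.849 RPKM.

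Replicates differed among themselves in these genes as a set. The mean log2(CPM + 1) over the 32 genes was 4.61, 3.52 and 4.34 in foamy replicates 1 to 3, against 4.64, 5.14 and 5.34 in the non-foamy ones, while that over all tested genes stayed between 3.77 and 3.85. Foamy replicate 1 was thus nearly level with non-foamy replicate 1 for these genes, and foamy replicate 2 was low. Foamy replicate 2 was the lowest of its group in 24 of 32 genes (75.0%) and the highest in none, where it was the lowest in 34.1% of the 9188 tested genes in the same range of mean CPM. It had 18592421 counts, the fewest of the foamy libraries, and 17757 genes with a count, the most of them. Among non-foamy libraries, replicate 3 was the highest in 21 of 32 genes and replicate 1 the lowest in 19.

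**Figure D3:**
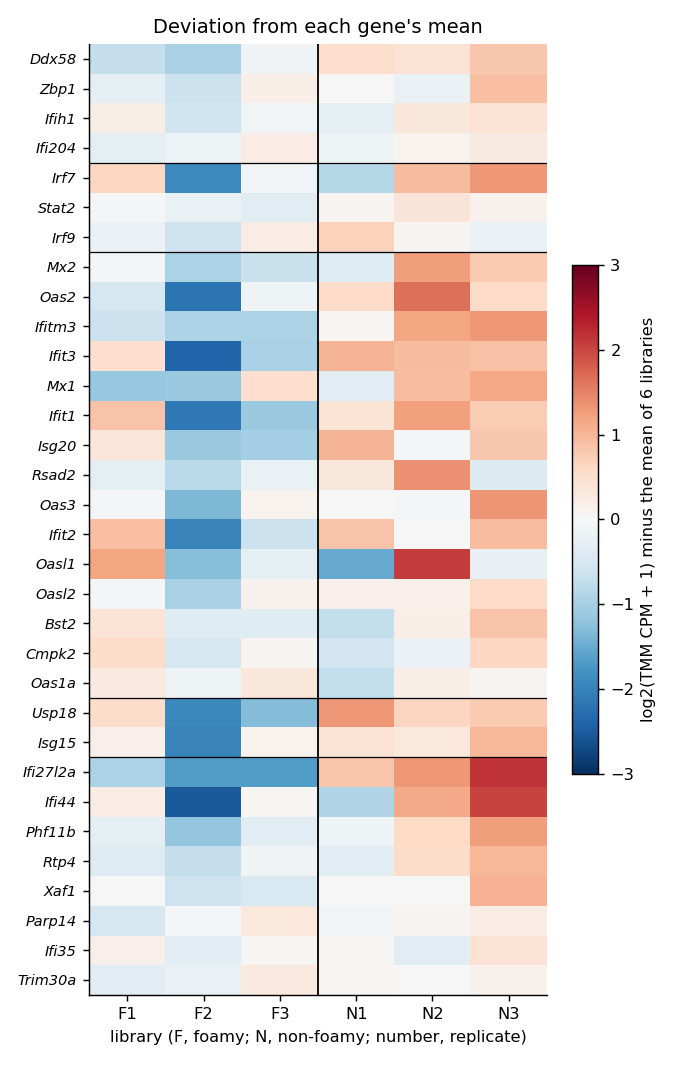
Log2(TMM CPM + 1) of each gene (y) in each library (x, F foamy and N non-foamy with the replicate number), minus the gene's mean over the 6 libraries, red above and blue below that mean. The column of foamy replicate 2 is on the blue side for all 32 genes and darkest for Ifi44, Ifit3 and Oas2, and the column of non-foamy replicate 3 is red for most.

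The spread between replicates was somewhat wider than for other genes. The median SD of log2(CPM + 1) over the 32 genes was 0.46 in foamy and 0.58 in non-foamy libraries, against 0.33 and 0.43 over the 9188 genes in the same range of mean CPM. Foamy replicates 1 and 2 were over 2-fold apart in 12 of the 32 genes (37.5%), where 12.4% of the genes in that range were. For the other pairs of foamy libraries the share was 21.9% (1 and 3) and 31.2% (2 and 3), against 11.0% and 11.1%. Among non-foamy libraries it was 28.1% (1 and 2), 40.6% (1 and 3) and 18.8% (2 and 3), against 20.96%, 24.4% and 18.9%, so that the last pair was no further apart in these genes than in others. The widest SDs were those of Oasl1, Ifit1 and Ifi44. Oasl1 had 7.50, 0.557 and 2.10 CPM in foamy and 0.325, 15.0 and 2.20 CPM in non-foamy replicates 1 to 3, so that neither group formed a cluster and its sign turned without non-foamy replicate 2 (log2 fold change 1.41).

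Interferon transcripts themselves were nearly absent. Of 21 ligand genes none passed the filter on low counts, 10 had no count in any library, and the whole list summed to 2 counts in foamy and 75 in non-foamy libraries. Ifnb1, interferon beta, accounted for most: it had 1, 0 and 0 counts in foamy and 0, 14 and 47 counts in non-foamy replicates 1 to 3. The non-foamy counts came from replicates 2 and 3, and the single foamy count from replicate 1. Ifng, the type II interferon, had 1 count in all 6 libraries together.

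Upstream of the response genes, Ifnar1 and Socs3 fell in foamy libraries among 13 tested receptor and proximal signalling genes, and none rose. Ifnar1 had 13.7, 26.1 and 17.9 CPM in foamy and 45.3, 51.4 and 34.9 CPM in non-foamy replicates 1 to 3, without overlap (log2 fold change -1.19, SE 0.31, adjusted p = 0.048 with edgeR). This call lay at the threshold and was lost without any one of the 6 libraries (-1.46 to -0.99), with upper-quartile factors (-1.16) and with the replicate block. Socs3, a feedback inhibitor of cytokine receptors, had 25.4, 29.1 and 33.0 CPM against 112, 77.2 and 105 CPM (log2 fold change -1.75, SE 0.24, adjusted p = 0.0016 with edgeR). The receptor's other chain Ifnar2 (log2 fold change -0.27, SE 0.34) and its kinases Jak1 (-0.12, SE 0.18) and Tyk2 (-0.05, SE 0.45) did not pass, nor did Irf3 (-0.99, SE 0.51), the DNA sensor Cgas (-0.65, SE 0.48) or its adaptor Tmem173, which encodes STING (-0.44, SE 0.25). Of 20 tested genes of the machinery that induces interferon, none was called, and 2 had an unadjusted p under 0.05 (Irf1 and Tlr7). DESeq2 called none of these 20 either, and 1 was called lower without foamy replicate 3.

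Of 61 tested further interferon-induced genes, 4 fell and 1 rose, where 2.9% and 2.5% of all tested genes did, and the median log2 fold change was -0.45. Those that fell were Ms4a4c, Ifitm6, Ifitm1 and Slfn1, and without foamy replicate 2 the count was 2. Of these 4, Ifitm6 and Ifitm1 passed the filter on low counts through the non-foamy libraries, where they are high. The count of 4 therefore rests in part on how genes entered the test. Ms4a4c, a membrane protein gene, had 16.4, 5.57 and 11.9 CPM in foamy and 86.5, 83.4 and 105 CPM in non-foamy replicates 1 to 3 (log2 fold change -3.02, SE 0.36, adjusted p = 7.9e-04 with edgeR). Slfn1 (-2.37, SE 0.48) did not pass when foamy replicate 2 (-2.06) or 3 (-2.43), or non-foamy replicate 2 (-2.15), was left out. Lgals3bp, a secreted galectin-binding glycoprotein, went the other way, at 427, 303 and 581 CPM in foamy and 182, 172 and 222 CPM in non-foamy replicates 1 to 3 (log2 fold change 1.19, SE 0.24, adjusted p = 0.015 with edgeR). Lgals3bp was not called when replicate 1 (1.21) or 3 (0.93) of the foamy group, or replicate 2 of the non-foamy group (1.11), was left out.

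**Figure D4:**
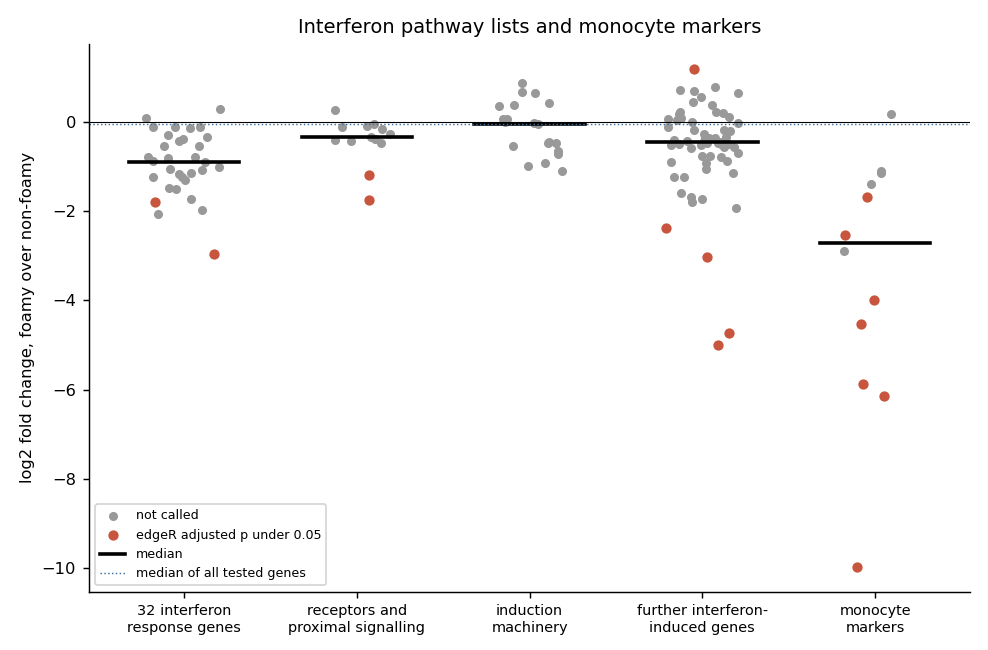
Log2 fold change, foamy over non-foamy (y), of each tested gene in 5 lists (x), with called genes in red, the list's median as a black bar, and the median of all tested genes as a dotted line. The medians were -0.89 for the 32 genes, -0.33 for receptors and proximal signalling, -0.04 for the induction machinery, -0.45 for further interferon-induced genes and -2.72 for monocyte markers, whose lowest point is Plac8 with 1 count in foamy libraries.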

How the data were processed

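Reads were 50 bases long and single-ended, from SMARTer Ultra Low cDNA, per the labels' protocols, which mention no molecular identifiers. Alignment used STAR 2.0.4b and counting used featureCounts 1.4.5 of Subread, with build GRCm38, per the submitters' processing notes. The handling of strand and of multi-mapped reads is not stated there. The deposited counts are whole reads per gene. The CPM deposited by the authors equals the count per 1000000 counts in genes, and the deposited RPKM equals that CPM per kilobase, on all 41388 genes to a tolerance of 1e-06. Gene symbols were matched by identifier (97.26% of identifiers, at least 99.71% of counts).

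All counts entered 1 edgeR 4.0.16 fit (R 4.3.3) after filterByExpr and TMM scaling. The robust quasi-likelihood test was adjusted by Benjamini-Hochberg over 11303 genes. TMM factors ran from 0.868 to 1.186. Alternatives were RLE, upper-quartile or no factors, DESeq2 1.42.0, limma-voom (limma 3.58.1), no filter, a stricter filter (3 libraries with 10 or more counts, and 5 CPM on average), a replicate block and each library left out. The alternatives for called pathway genes outside the 32 were added after seeing the data. Means and SDs are of TMM-scaled CPM. The fit was also run on simulated counts, drawn independently for each gene. That run does not cover shifts shared by many genes of a library. Shared 50-base stretches were counted in GENCODE M21 transcripts. Replicate libraries all differed by more than sampling noise. The 32 genes and all lists were chosen with earlier results of these data known. Every one of the 32 may be named. Values by library are given for those called, the 8 smallest p, the 6 highest RPKM, the 3 largest SDs and others picked after their values were seen. In the pathway lists, called genes (at most 6 by p) and a set of core genes are named whatever their values, besides a few picked after their values were seen. Of the core genes, 1 is not reported here.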

Additional observations from a re-analysis of the deposited data

How the results depend on the processing

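Ifi27l2a and Ifitm3 were called under all 14 alternatives. The number of the 32 genes called lower was 2, and 5 with total counts only, 5 with DESeq2, 6 without a filter and 2 to 5 over the left-out libraries (5 without foamy replicate 1, 4 without non-foamy replicate 1). None was called higher under any alternative. Total counts only moved the median of all tested genes from -0.04 to -0.31, and the median of the 32 genes lay 0.83 below it, against 0.85 with TMM. The gap was 0.16 without a filter and 0.08 with DESeq2, both over 29120 genes against 11303. With the stricter filter, over 7757 genes, the medians were -0.92 for the 29 members tested and -0.03 for all genes. Among called lower receptor and signalling genes (2 in all), 1 was called with upper-quartile factors, with the replicate block and without any 1 library. The induction machinery had 1 called lower without foamy replicate 3 and 0 otherwise. Further interferon-induced genes called lower numbered 11 with total counts only, 8 with DESeq2, 8 without a filter and 2 to 6 over the left-out libraries, and those called higher 0 to 1. Signs turned in genes near 0 or of wide spread: Ifi35 without foamy replicate 2 (0.03) or non-foamy replicate 3 (0.13; -0.28 to 0.13 over the left-out libraries), Trim30a (0.01; -0.32 to 0.01) and Parp14 (0.08; -0.34 to 0.08) without foamy replicate 1, Bst2 without non-foamy replicate 3 (0.16; -0.63 to 0.16), Oasl1 without non-foamy replicate 2 (1.41; -2.12 to 1.41), and Cmpk2 with total counts only (-0.18) or without foamy replicate 1 (-0.27), non-foamy replicate 1 (-0.20) or 2 (-0.04; -0.27 to 0.60). The cause of these moves was not tested. No pairing by replicate number was seen over all tested genes: deviations of same-numbered libraries correlated at -0.12, -0.03 and -0.05. Over the 32 genes the values were -0.06, -0.16 and 0.18. With 3 libraries in each group, this cannot show that same-numbered libraries shared no mice or batch. With the replicate block, 391 genes were called against 611, and 3 of the 32 (Ifi27l2a, Ifitm3 and Usp18, the last at -1.91, edgeR adjusted p = 0.035), and Ifnar1 was not (-1.22, edgeR adjusted p = 0.074). Mx2, Oasl1 and Cmpk2 did not pass the stricter filter. Depth limits genes of few counts, such as Ifi44 with 3 in foamy replicate 2.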

Other observations

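Some of the further interferon-induced genes were highest in replicate 3 of both populations, a pattern noticed in the data and given as values without a test. Iigp1, an immunity-related GTPase gene, had 16.5, 2.90 and 137 CPM in foamy and 11.4, 6.99 and 101 CPM in non-foamy replicates 1 to 3. The chemokine gene Cxcl9 had 28.2, 8.64 and 112 CPM in foamy and 20.0, 17.5 and 104 CPM in non-foamy replicates 1 to 3, and Ccl5 had 10.2, 5.52 and 50.0 CPM and 2.71, 27.8 and 91.9 CPM. In Gbp2, a guanylate-binding protein gene, the values were 35.5, 33.5 and 113 CPM and 35.0, 22.2 and 58.3 CPM. In these 4 genes replicate 3 was the highest library of both populations, whereas Ifit1, Ifit2 and Ifit3 were highest in replicate 1 of the foamy libraries. None of the 4 was called between the populations, with log2 fold changes of 0.39 (SE 1.74), 0.07 (SE 1.06), -0.90 (SE 1.25) and 0.66 (SE 0.48).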
